A study of Drosophila melanogaster with 36 samples.

Results

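Of the 186 transposon rows whose start-site signal was deposited, 66 were taken by their names: rows that are not written as a long terminal repeat (LTR) or as the internal part of an LTR element, and that are neither R1 or R2 nor one of the telomeric elements TART, HETA and TAHRE. The rule uses names and no measured value. By family name, 30 of the 66 entries are non-LTR retrotransposons and 27 are DNA transposons. The label goes against the names in 6 entries: CIRCE, DM412, Gypsy_DS, ROVER, ROVER-I_DM and TV1I belong to LTR retrotransposons. Embryo levels of those LTR entries that are named singly are given apart from the rest. All totals, ranks, counts and medians over the 66 entries include these 6. A further 3 entries, M4DM, MARINA and PENELOPE, were not assigned to a class. Left out by the names were 59 LTR rows, 54 internal rows, 3 rows of R1 and R2, and 4 telomeric rows.

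Whole flies were pooled at each of 36 stages, untreated and all of the strain y; cn bw sp, and every stage gave 1 library. There were 24 hourly embryo windows, which were placed in 6 groups of 4 consecutive hours. The larvae were L1, L2 and 3 L3 stages told apart by gut colour, the pupae were aged 1 to 5 days from the white prepupa (WPP), and the adults were males and females at 5 days. RAMPAGE was used, which reads the 5′ ends of capped RNA and so maps where transcription starts. Embryos, larvae with pupae, and adults formed 3 separately multiplexed libraries, and adult RNA was also prepared with another reagent and run on another instrument, so no test was made across them.

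A typical DNA transposon codes for a transposase that cuts the element out of one place in the genome and inserts it in another. Helitron-like entries such as DNAREP1_DM are counted in the DNA class here but are not covered by that description. A non-LTR retrotransposon is copied through an RNA that starts at a promoter inside the element's own 5′ end, and the copy is reverse transcribed at the new site. In the fly germ line both kinds are held down by piRNAs, small RNAs that guide Piwi proteins to transposon transcripts, and mothers pass part of this RNA and protein to the egg. Each entry pools the reads of all its annotated copies, full-length and broken, so a level belongs to a family and not to a single insertion.

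Levels are given in RPM, reads per 1000000 transposon reads of the library, so each is a share of the transposon signal. The number of transposon reads, recovered from the steps of the table, ran from 3457 to 249017 per library, and the 66 entries held 196 to 13450 of them. Transposon reads were 0.397 per 100 genic reads at 0 to 1 h, 1.584 at 4 to 5 h, 1.955 at 7 to 8 h and between 0.402 and 0.575 in the 8 libraries from 16 h on. The shares were therefore also put per 1000000 reads of genic start-site peaks for the embryos, L1, L2 and the adults. The 7 to 8 h library stood apart: it had the fewest genic reads of all (698702) and 32 of the 66 entries above 0, where the other 23 embryo libraries had 37 to 63. The 3 to 4 h library went against its neighbours in the cuticle marker genes. Their summed level was 718 RPM of genic reads there, 114 at 2 to 3 h and 0.289 at 4 to 5 h. In the same order the muscle markers summed to 247, 69.8 and 28.9 RPM, and the nervous system markers to 31.1, 9.88 and 1.45. The germ line and ovary markers lay between their neighbours, at 44.0, 217 and 24.6 RPM in that order. Where a call on shares named below was lost without the 7 to 8 h or the 3 to 4 h library, this is said beside it. Calls per genic reads were not refitted without single libraries.

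The 66 entries together held 7.87 ± 2.08% of the transposon reads at 0 to 4 h (mean ± SD over the 4 hourly libraries of a group, here and below), 11.7 ± 4.06% at 4 to 8 h and between 9.29% and 10.7% as the mean of each later embryo group. The share was highest at 5 to 6 h, 16.0%, and fell to 6.46% in the 7 to 8 h library. Put per 1000000 genic reads, the entries rose from 215 reads at 0 to 1 h to 2066 at 5 to 6 h and then came down to between 389 and 569 in the libraries from 16 h on. The larvae had 5.50 ± 1.13% (n = 5) and the pupae 6.98 ± 1.65% (n = 5). The male library had 9.62% and the female library 4.06%.

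**Figure D1:**
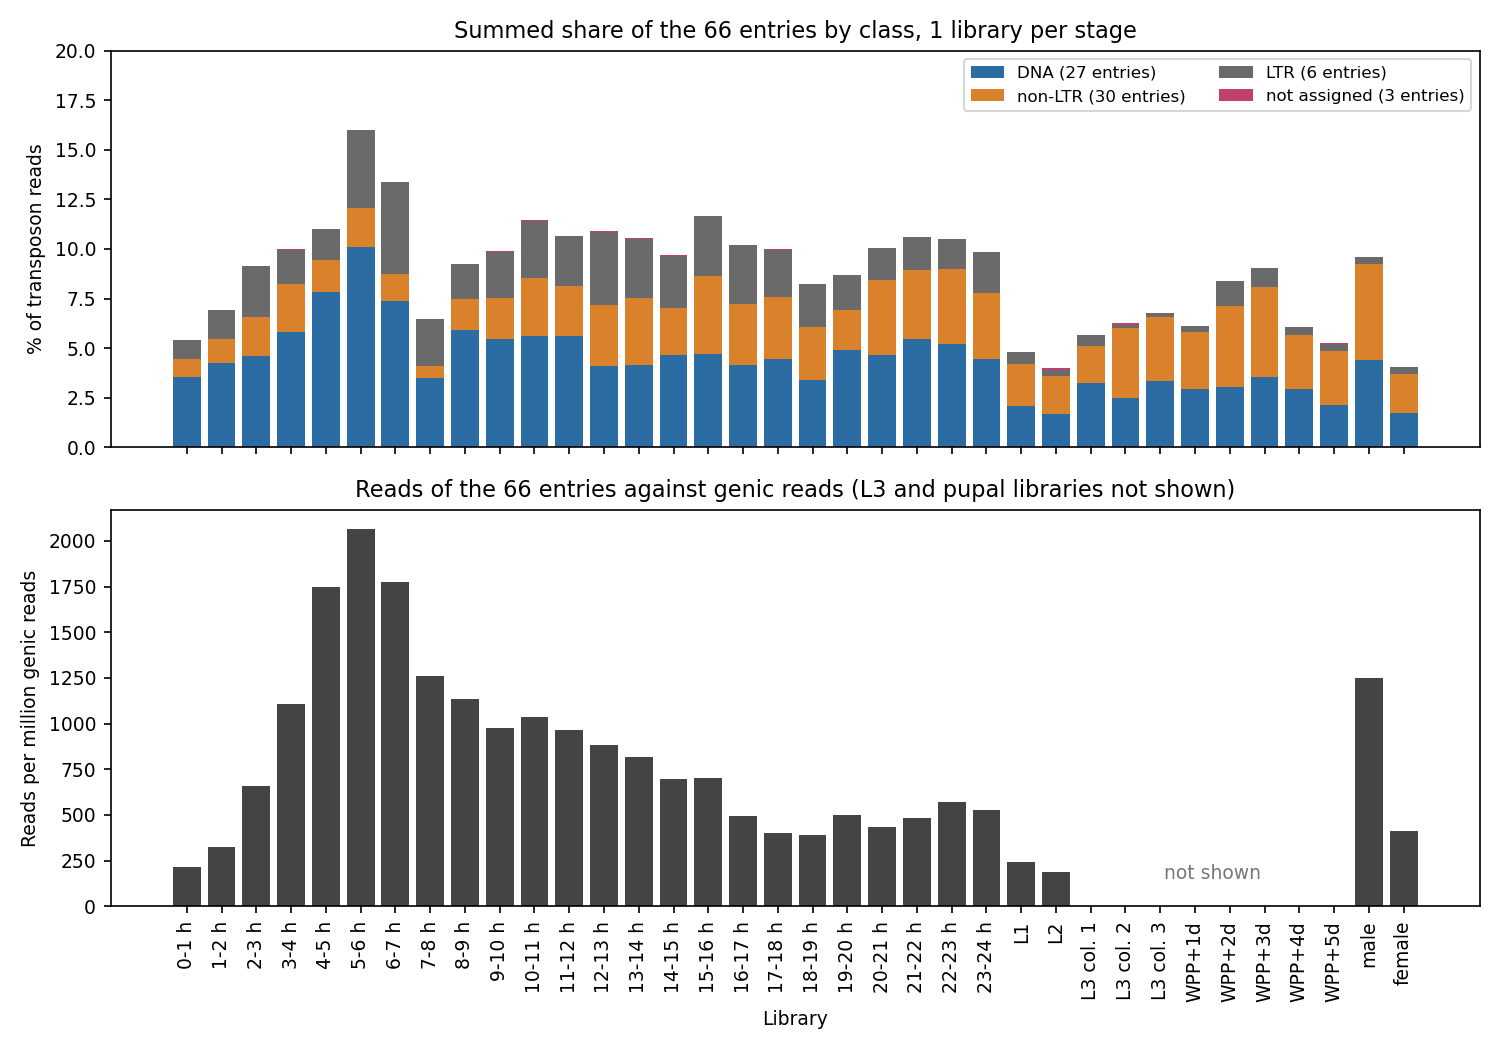
The upper bars give the summed share of the 66 entries in percent of transposon reads for each of the 36 libraries, coloured by class, and the lower bars give their reads per 1000000 genic reads where that scale could be had. The share peaks at 16.0% in the 5 to 6 h library, where the DNA class is also at its highest, and the lower panel peaks in the same library at 2066 reads.

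Over the embryo hours the shares of the classes were as follows, with no test between them. The DNA transposons held 4.55 ± 0.95% of the transposon reads at 0 to 4 h and 7.20 ± 2.74% at 4 to 8 h. They then held 5.65 ± 0.19%, 4.40 ± 0.31%, 4.21 ± 0.64% and 4.95 ± 0.49% in the following groups. The non-LTR entries held 1.63 ± 0.69% and 1.39 ± 0.56% in the first 2 groups, then 2.26 ± 0.59%, 3.19 ± 0.66%, 2.73 ± 0.49% and 3.58 ± 0.23%. The 6 LTR entries held 1.7 ± 0.7% at 0 to 4 h and 3.1 ± 1.4% at 4 to 8 h. In the following groups they held 2.4 ± 0.5%, 3.1 ± 0.5%, 2.3 ± 0.5% and 1.7 ± 0.3%. The range of the non-LTR share over the last group, 3.32 to 3.79%, lay above that of the 4 to 8 h group, 0.612 to 1.93%. Per 1000000 genic reads the non-LTR entries gave 202 ± 63.6 reads in the 4 to 8 h group, 230 ± 39.6 in that of 12 to 16 h and 176 ± 20.0 in the last, so on that scale the mean of the last group was not above the 4 to 8 h mean. The DNA transposons without HOBO held 2.19 ± 0.39% at 4 to 8 h and 4.77 ± 0.49% at 20 to 24 h, but per 1000000 genic reads they gave 329 ± 25.1 and 234 ± 32.5 reads, the later group being the lower.

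Few entries made up most of this signal. Over the 36 libraries 15 entries averaged at least 1000 RPM, 30 averaged 100 to 1000 RPM and 21 less than 100 RPM. Every entry was above 0 in at least 1 library and 6 were above 0 in all 36. DNAREP1_DM, DM412 and HOBO together held 46.8% of the summed signal, and the 12 highest entries held 83.8%. In order these 12 were DNAREP1_DM, DM412, HOBO, PROTOP, DOC, FW_DM, LINEJ1_DM, CIRCE, FB4_DM, G6_DM, PROTOP_A and BS3_DM. The highest of them ranked 10th among all 186 rows. The embryo library in which an entry was highest fell at 0 to 4 h for 16 entries, at 4 to 8 h for 4, at 8 to 12 h for 2, at 12 to 16 h for 12, at 16 to 20 h for 18 and at 20 to 24 h for 14. A level near 1 read can set such a maximum in a shallow library, since 1 read was worth between 6.89 and 179 RPM in the embryos.

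**Figure D2:**
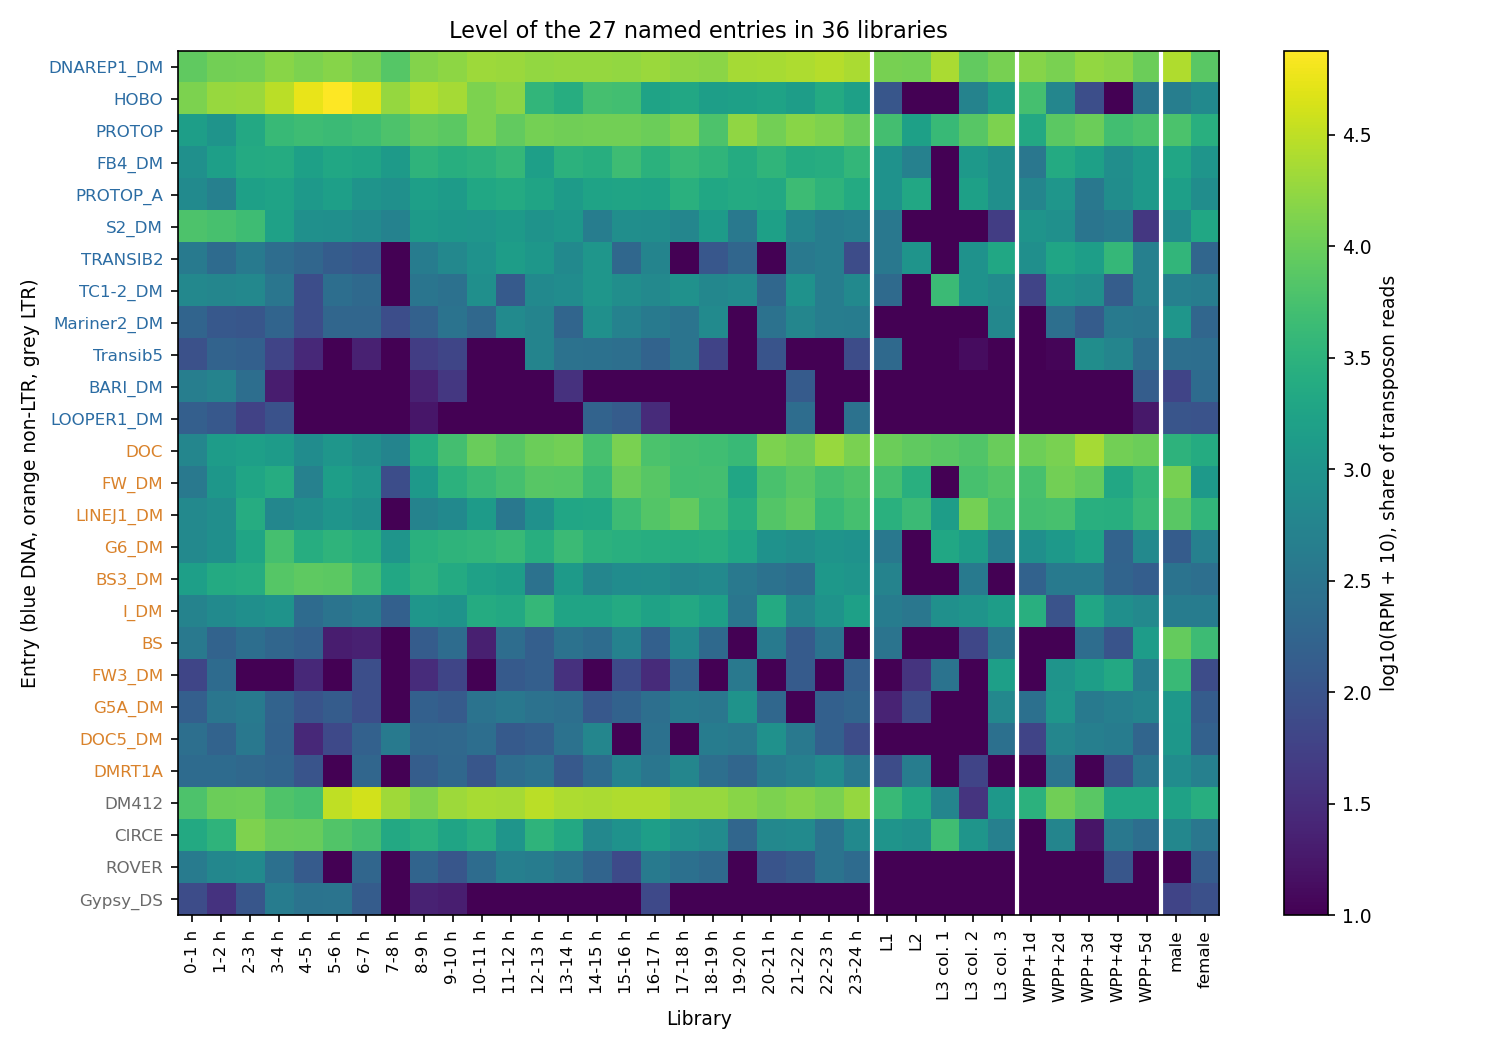
Colour gives log10(RPM + 10) of 27 named entries (rows, grouped by class) in the 36 libraries (columns), with white lines between embryos, larvae, pupae and adults. HOBO is brightest from 4 to 7 h and DM412 from 5 to 7 h. DOC and FW_DM darken at 7 to 8 h and brighten from 8 h on, and BS stands out in the adults.

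HOBO, a DNA transposon of the hAT superfamily, reached the highest level of any entry in any library. It measured 13001, 19009, 19620 and 30130 RPM in the hourly libraries from 0 to 4 h, and 55430, 75315, 51033 and 18446 RPM from 4 to 8 h. It was at 27395, 22345, 12967 and 15689 RPM from 8 to 12 h, and at 3559, 2614, 5482 and 5114 RPM from 12 to 16 h. The 3 libraries from 4 to 7 h were above every other library of the series, and no embryo library after 16 h passed 2308 RPM. HOBO made up 28.6 to 50.3% of the signal of the 66 entries in the 4 to 8 h libraries and 1.33 to 2.20% in those of 20 to 24 h.

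HOBO was higher at 4 to 8 h than at 0 to 4 h by 1.19 ± 0.36 on the log2(RPM + 10) scale (± SE, limma with Benjamini-Hochberg adjustment, adjusted p = 0.0173), although the groups overlapped through the 7 to 8 h library. Without that library the step was 1.61 (limma adjusted p = 0.00117). Between 4 to 8 h and 12 to 16 h it fell by 3.47 ± 0.36 (limma adjusted p = 2.62e-09), and the groups did not overlap. It fell again to 20 to 24 h, by 1.21 ± 0.36 (limma adjusted p = 0.0272). Per 1000000 genic reads HOBO rose from 51.6 reads at 0 to 1 h to 972 at 5 to 6 h and was at 6.48 to 12.5 in the last 4 libraries. The p-values here and below weigh a difference against the spread between neighbouring hours, since a stage had no replicate.

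On shares PROTOP, an element of the P superfamily also known as 1360 or Hoppel, rose further after HOBO had peaked and stayed up. It was at 1487, 1015, 2176 and 4039 RPM from 0 to 4 h, and at 4773, 4399, 4849 and 6150 RPM from 4 to 8 h. From 12 to 16 h it was at 11803, 10715, 11151 and 11269 RPM, and its highest embryo value was 17040 RPM at 19 to 20 h. The 4 to 8 h group lay above the 0 to 4 h group without overlap, by 1.39 ± 0.34 on the log2 scale (limma adjusted p = 0.00344). The 12 to 16 h group lay above that of 4 to 8 h by 1.17 ± 0.34 (limma adjusted p = 0.00768). Per genic reads the second step was 0.10 and did not pass the test (limma adjusted p = 0.921). The shorter relatives PROTOP_A and PROTOP_B were at 481 to 4560 RPM and 0 to 1076 RPM in the embryos.

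DNAREP1_DM, a short and very numerous Helitron-like element also called DINE-1, had the highest mean of the 66 entries, 16314 RPM. It was at 8367 to 15471 RPM from 0 to 4 h, at 7059 to 15040 RPM from 4 to 8 h and at 23784, 24809, 27477 and 23986 RPM from 20 to 24 h. None of the 3 embryo comparisons called it on shares. Per genic reads it was higher at 4 to 8 h than at 0 to 4 h by 1.28 on the log2 scale (limma adjusted p = 0.0114). FB4_DM, of the foldback family with long inverted repeats, was likewise called on genic reads alone, with a step of -0.01 on shares and of 1.27 per genic reads (limma adjusted p = 0.038).

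Several rarer DNA transposons were lower at 4 to 8 h than before. S2_DM, of the Tc1/mariner superfamily, was at 6170, 5607, 4637 and 1633 RPM from 0 to 4 h and at 877, 855, 696 and 512 RPM from 4 to 8 h, without overlap (-2.47 ± 0.49, limma adjusted p = 0.000459). Per genic reads the step was -1.19 and was not called (limma adjusted p = 0.0776). BARI_DM, of the same superfamily, was at 441, 534, 244 and 10.5 RPM in the first 4 libraries, which is 32 reads in all, and at 0 in each of the 4 libraries from 4 to 8 h. Against a floor of 3 reads over that group it was at least 10.25-fold lower there. LOOPER1_DM, a piggyBac-like element, had 16 reads from 0 to 4 h and none from 4 to 8 h, at least 5.12-fold lower by the same floor.

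TC1-2_DM was at 634, 587, 634 and 327 RPM from 0 to 4 h, at 73.1, 244, 203 and 0 RPM from 4 to 8 h, and at 686, 754, 1075 and 821 RPM from 12 to 16 h. It fell by 2.72 ± 0.78 on the log2 scale (limma adjusted p = 0.0125) and rose again by 3.35 ± 0.78 (limma adjusted p = 0.000858). Without the 7 to 8 h library the fall was 1.70 and lost its call (limma adjusted p = 0.0779), and the rise was 2.33. The fall was also not called per genic reads (-1.78, limma adjusted p = 0.121) or in the 8 libraries alone (limma adjusted p = 0.0774). Transib5 went through the same fall and rise on few reads, 14 from 0 to 4 h, 2 from 4 to 8 h and 24 from 12 to 16 h. Its ratio of 12 to 16 h over 4 to 8 h was 24.1 with a 95% exact counting interval of 5.98 to 210, and that of 0 to 4 h over 4 to 8 h was 6.73 with an interval of 1.54 to 61.0. In 20 to 24 h it was back at 2 reads. Its fall to 4 to 8 h was not called without any 1 of 6 libraries, the 3 to 4 h and 4 to 5 h ones being the exceptions, and its fall to 20 to 24 h was not called without any 1 of 4. Per genic reads the fall to 4 to 8 h was -2.17 and not called (limma adjusted p = 0.105).

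**Figure D3:**
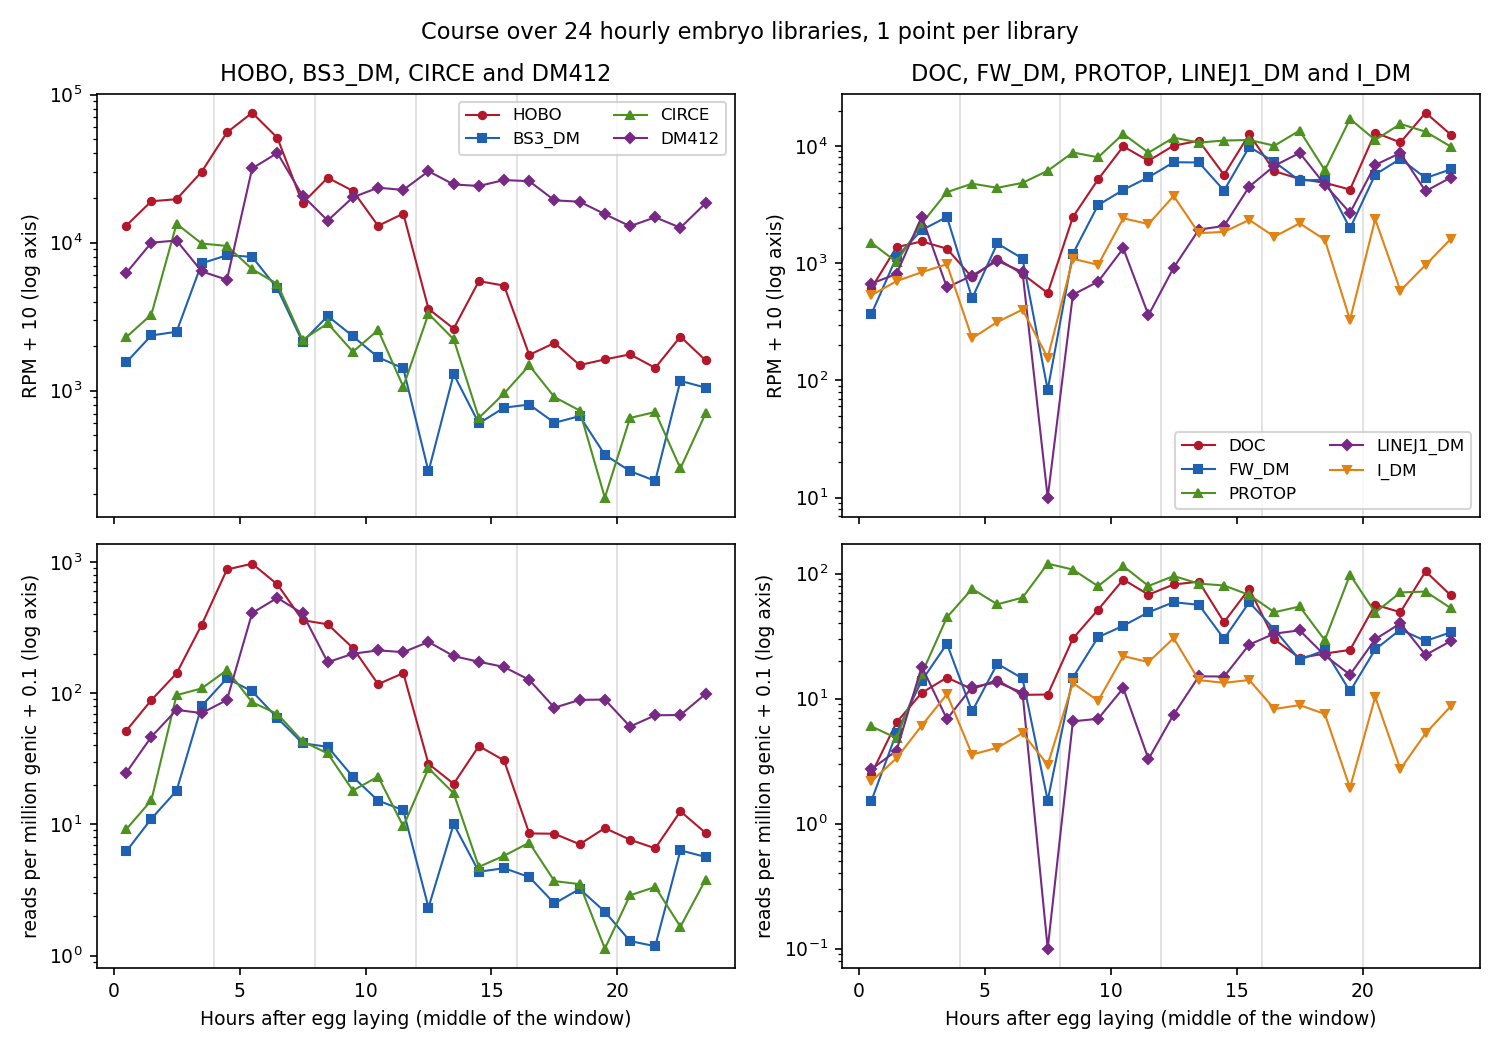
Each point is 1 of the 24 hourly embryo libraries, with RPM + 10 in the upper panels and reads per 1000000 genic reads + 0.1 in the lower ones, on log axes. HOBO, BS3_DM and CIRCE lie lower from 12 to 16 h than from 4 to 8 h on both scales as group means, DOC, FW_DM and I_DM lie higher, and the 7 to 8 h library lies low for FW_DM and LINEJ1_DM.

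Among the non-LTR retrotransposons, DOC and FW_DM, the Doc and F elements of the jockey clade, were higher at 12 to 16 h than at 4 to 8 h. DOC was at 602, 1362, 1527 and 1323 RPM from 0 to 4 h and at 747, 1081, 801 and 547 RPM from 4 to 8 h. It was at 2469, 5192, 9932 and 7480 RPM from 8 to 12 h and at 10090, 11097, 5677 and 12634 RPM from 12 to 16 h. Its highest embryo value was 19257 RPM at 22 to 23 h. The rise from 4 to 8 h to 12 to 16 h was 3.60 ± 0.38 on the log2 scale (limma adjusted p = 2.73e-09), with no overlap, and 2.54 per genic reads (limma adjusted p = 4.62e-05).

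FW_DM was at 358, 1121, 1913 and 2477 RPM from 0 to 4 h, at 493, 1466, 1089 and 73.2 RPM from 4 to 8 h and at 7274, 7244, 4165 and 9842 RPM from 12 to 16 h. The last step was 3.74 ± 0.63 on the log2 scale (limma adjusted p = 1.4e-05) and 2.87 without the 7 to 8 h library. I_DM, the I element known for the hybrid dysgenesis of inducer and reactive strains, was at 219, 305, 393 and 146 RPM from 4 to 8 h and at 3747, 1798, 1844 and 2336 RPM from 12 to 16 h. The groups did not overlap, and the difference was 3.17 ± 0.54 (limma adjusted p = 1.74e-05).

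LINEJ1_DM, the jockey element itself, had its highest embryo share at 17 to 18 h, with nearly the same share at 21 to 22 h. It was at 776, 1039, 835 and 0 RPM from 4 to 8 h and at 907, 1929, 2073 and 4499 RPM from 12 to 16 h. It was at 6789, 8736, 4688 and 2684 RPM from 16 to 20 h and at 6901, 8721, 4115 and 5384 RPM from 20 to 24 h. Its level per genic reads was highest at 21 to 22 h, at 39.9 against 35.1 at 17 to 18 h. The step to 12 to 16 h was called on shares at 2.81 ± 0.86 (limma adjusted p = 0.0103) with overlapping groups, and not per genic reads, where it was 2.06 (limma adjusted p = 0.114). Without the 7 to 8 h library, where LINEJ1_DM is at 0, the step was 1.19 and was not called (limma adjusted p = 0.0921). BS, of the same clade, was at 146, 10.2, 12.7 and 0 RPM from 4 to 8 h and at 137, 276, 226 and 505 RPM from 12 to 16 h, and its call (3.20 ± 1.18, limma adjusted p = 0.0318) was lost per genic reads (limma adjusted p = 0.103) and without any 1 of 6 of the 8 libraries, the 4 to 5 h and 12 to 13 h ones being the exceptions.

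BS3_DM, named for the same family as BS, followed the opposite course. It was at 1542, 2350, 2489 and 7238 RPM from 0 to 4 h, at 8201, 8004, 4887 and 2123 RPM from 4 to 8 h and at 274, 1282, 591 and 758 RPM from 12 to 16 h. The fall was 3.00 ± 0.56 on the log2 scale (limma adjusted p = 6.65e-05) and the groups did not overlap. Without the 7 to 8 h library it was 3.42. G6_DM, of the G family of the jockey clade, was at 669, 852, 1885 and 5484 RPM from 0 to 4 h. It was at 2637, 3286, 2678 and 1036 RPM from 4 to 8 h. From 12 to 16 h it was at 2676, 4414, 3137 and 2739 RPM, and it came down to 939, 825, 1010 and 951 RPM from 20 to 24 h. The difference between these last 2 groups was -1.76 ± 0.45 on the log2 scale (limma adjusted p = 0.012). DMRT1A, an RT1 element of the R1 clade, was at 220, 214, 195 and 169 RPM from 0 to 4 h and at 91.3, 0, 181 and 0 RPM from 4 to 8 h, a fall of 2.48 ± 0.86 (limma adjusted p = 0.0376) with overlapping groups. Its call was kept without the 4 to 5 h or the 6 to 7 h library and lost without any 1 of the other 6, and per genic reads the fall was 1.72 and not called (limma adjusted p = 0.182).

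The entries of LTR families also parted. DM412, the 412 element, was at 6213, 9974, 10320 and 6375 RPM from 0 to 4 h and at 5603, 31665, 40250 and 20755 RPM from 4 to 8 h. It stayed between 12588 and 30335 RPM in all later embryo libraries and was at 28.3 to 4272 RPM in the larvae. Its rise to 4 to 8 h was 1.30 ± 0.38 on the log2 scale (limma adjusted p = 0.015), with the 4 to 5 h library still at the early level. CIRCE was at 2286, 3258, 13373 and 9841 RPM from 0 to 4 h and at 9479, 6611, 5242 and 2196 RPM from 4 to 8 h. It then fell to 3294, 2212, 645 and 947 RPM from 12 to 16 h (-1.83 ± 0.60, limma adjusted p = 0.0172, overlapping groups), a call lost without the 4 to 5 h, the 14 to 15 h or the 15 to 16 h library. ROVER was at 399, 614, 708 and 263 RPM from 0 to 4 h and at 119, 0, 184 and 0 RPM from 4 to 8 h (-3.57 ± 1.06, limma adjusted p = 0.015), a call lost without the 5 to 6 h or the 7 to 8 h library and per genic reads (-2.79, limma adjusted p = 0.0526). Gypsy_DS, which carries a species suffix other than that of D. melanogaster, had 31 reads from 4 to 8 h and none from 12 to 16 h, at least 5.14-fold lower against a floor of 3 reads over the group, and at least 5.61-fold without the 7 to 8 h library.

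Taken as a list, 63 of the 66 entries passed the minimum level in the embryo libraries (20 RPM in at least 4), and a call needed a change of 2-fold or more with a limma adjusted p under 0.05. From 0 to 4 h to 4 to 8 h, 3 entries were called higher and 10 lower. Of all 181 rows tested, 19.9% were called, 5.52% higher and 14.4% lower. The 3 higher were HOBO, PROTOP and DM412, and the 10 lower were 5 DNA transposons, 4 non-LTR entries and ROVER. The median change was -0.65 over the entries and -0.30 over all rows. Per genic reads the split turned to 8 higher and 2 lower, with medians of 0.05 for the entries and 0.72 for all rows, and with 23.1% of all rows called higher and 3.3% lower. Those 8 were HOBO, PROTOP, PROTOP_A, DNAREP1_DM, FB4_DM, BS3_DM, G6_DM and DM412, and the 2 were BARI_DM and LOOPER1_DM.

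The count of 13 calls depended on single libraries. It was 6 without the 5 to 6 h library and 6 without the 7 to 8 h library, 8 without the 2 to 3 h library, and 11 without the 3 to 4 h library. HOBO lost its call without the 0 to 1 h or the 5 to 6 h library, and DM412 without the 5 to 6 h or the 6 to 7 h library. In the 8 libraries alone 5 entries were called, all lower.

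From 4 to 8 h to 12 to 16 h, 14 entries were called higher and 4 lower, where 33.1% of all rows were called, 27.6% higher and 5.52% lower. The 14 were 8 non-LTR entries, 5 DNA transposons and ROVER-I_DM. The 4 lower were HOBO, BS3_DM, CIRCE and Gypsy_DS. The median was 0.81 over the entries and 0.93 over all rows. Per genic reads, where the median of all rows was 0.13, 5 entries were called higher (DOC, FW_DM, I_DM, TC1-2_DM and Transib5) and 5 lower, the same 4 and Jockey2. With that scale 11.5% of all rows were called higher and 8.79% lower. With median-of-ratios scaling 6 entries were higher and 4 lower, and 12.6% of all rows were called higher and 8.79% lower. Without the 7 to 8 h library the count on shares was 13.

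From 12 to 16 h to 20 to 24 h no entry was called higher and 3 were called lower, HOBO, G6_DM and Transib5, where 8.84% of all rows were called, 2.21% higher and 6.63% lower. Before adjustment 9 entries had p below 0.05. Per genic reads DM412 was called lower as well, with 1.1% of all rows called higher and 10.4% lower, and the median of all rows moved from -0.27 to -0.75. The HOBO call was lost in 6 of the 8 refits that left out 1 library, with adjusted p between 0.0541 and 0.101. The count was 1 without the 12 to 13 h or the 21 to 22 h library. Over the whole 24 h a course was found for 25 of the 63 entries (limma F test of a spline, 58.6% of all rows). These 25 held all 12 of the most abundant entries.

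**Figure D4:**
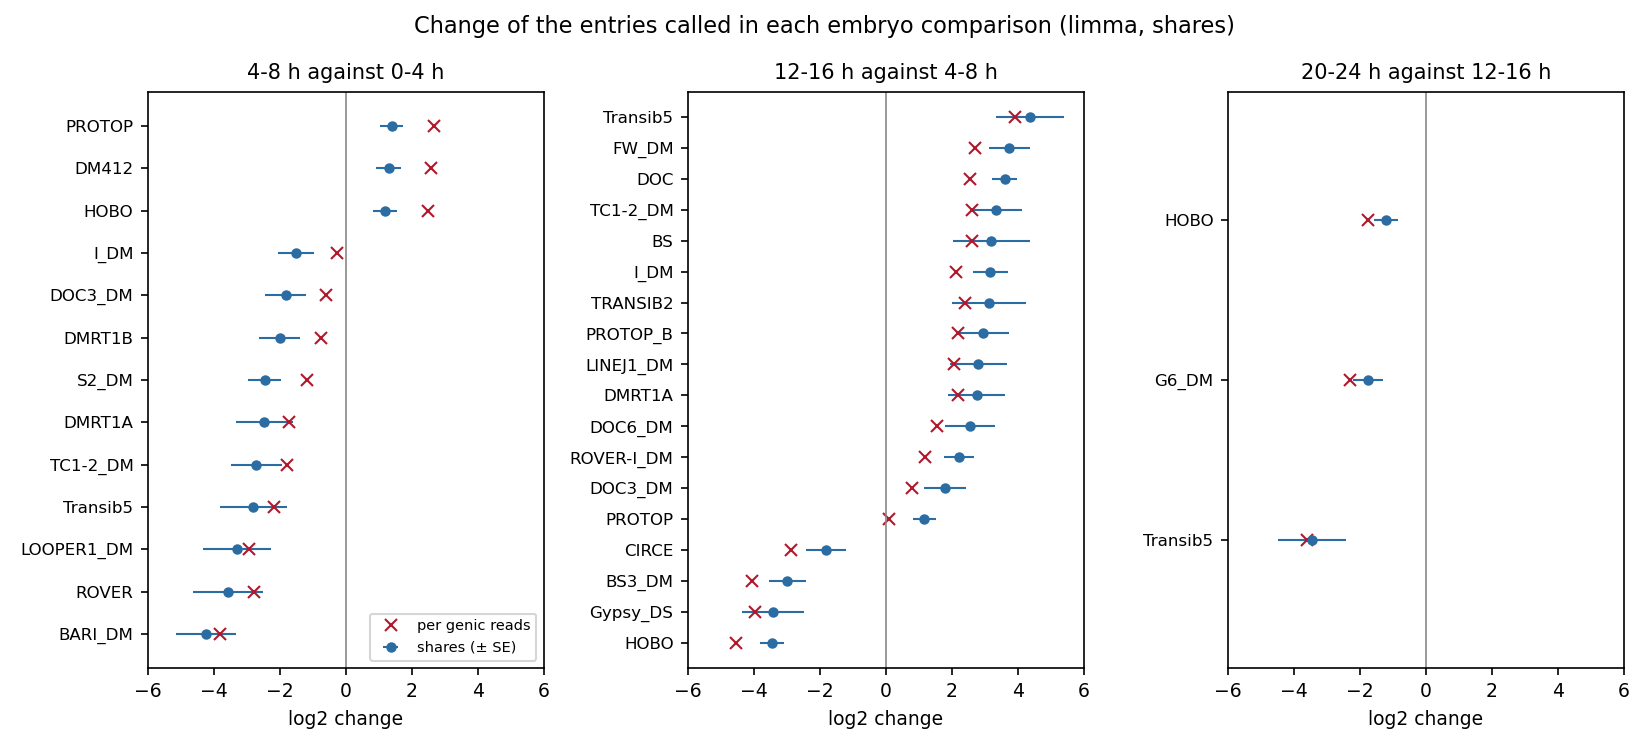
Points give the log2 change on shares, with bars for the SE, of every entry called in each of the 3 embryo comparisons, and crosses give the change of the same entry per genic reads. The crosses lie to the right of the points in the first comparison and to the left in the 2 others, and no entry changes sign.

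Host genes that act on transposons were listed for the embryos as well. Of 18 piRNA pathway genes 13 were matched in the gene table. Their summed start-site level was 1790 ± 784 RPM of genic reads at 0 to 4 h and 421 ± 89.0 at 4 to 8 h, and between 273 and 496 as the mean of each later group. AGO3 and armi made up most of the early sum, with 856 and 500 RPM on average. By library the sum was 1183 RPM at 3 to 4 h and 393 at 4 to 5 h. Its part in the changes of HOBO, DM412, S2_DM and BARI_DM between the same groups was not tested.

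Among the larvae and pupae 43 of the 66 entries passed the minimum level, and limma called none of them (1.42% of all rows were called, 0.709% higher and 0.709% lower), while 8 had an unadjusted p below 0.05. The smallest belonged to G2_DM, with a limma adjusted p = 0.113. Leaving out 1 L3 library gave 2 calls and leaving out the 1-day pupae gave 1. DOC was at 10040 RPM in L1, at 8577 in L2, at 7557, 6693 and 9695 in the L3 libraries, and at 10407, 12487, 22377, 11250 and 10282 RPM in pupae of 1 to 5 days. All pupal values were above all larval ones, but the difference of 0.60 ± 0.46 did not pass the test (limma adjusted p = 0.419). HOBO was at 0 to 1291 RPM in the larvae, and at 5424, 598, 76.7, 0 and 321 RPM in the pupae in order of age. BS was at 0, 0, 230, 90.2 and 1395 RPM in the pupae.

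The L3 columns of the table share a heading, so their gut stages could not be told apart. One of them held 3457 transposon reads, and 1 read was worth 289 RPM there. In the pupal columns of the gene table the minus-strand genes are at 0, and whether the pupal transposon values also lack a strand was not tested.

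In the adults, of 18 entries with at least 1000 RPM in a sex, 12 were at least 2-fold higher in males, 1 was at least 2-fold higher in females and 5 were within 2-fold. Of the 78 rows of the whole table at that level, 34 were at least 2-fold higher in males and 10 in females, which is 43.6% and 12.8%. Each sex had 1 library, so no test was possible, and the 95% Poisson intervals given here cover counting error only. Over the 49 entries above the floor of 3 reads in both libraries the median ratio of male to female was 1.549, and over the 150 rows of the table above it 1.543. In those, 20 of the 49 entries and 56 of the 150 rows were at least 2-fold higher in males, and 5 and 23 in females.

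FW3_DM, a relative of the F element, had the largest ratio, 61.4. It was at 4295 RPM (interval 3923 to 4692) in males and at 70.0 RPM (30.2 to 138) in females, from 490 and 8 reads. TRANSIB2 was at 3585 RPM (3246 to 3949) in males and at 184 RPM (114 to 281) in females, a ratio of 19.5. FW_DM was at 12168 RPM (11536 to 12826) in males and at 1234 RPM (1038 to 1455) in females, a ratio of 9.86. None of these pairs of intervals overlapped.

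The next ratios were 9.59 for G5A_DM, 7.49 for DOC5_DM and 5.92 for Mariner2_DM. DNAREP1_DM was at 26237 RPM in males and 7792 RPM in females. FW3_DM and TRANSIB2 were also present in pupae, at 0, 997, 1475, 2166 and 418 RPM and at 843, 1883, 1475, 3754 and 482 RPM in order of age. In the larvae they were at 0 to 1553 RPM and at 0 to 2038 RPM, each highest in the same L3 library.

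Among the entries with at least 1000 RPM in a sex, S2_DM was the only one at least 2-fold higher in females. It was at 2029 RPM (1776 to 2307) there against 727 RPM (579 to 902) in males, a ratio of 2.79. The same entry fell between the first 2 embryo groups. BS was at 9173 RPM in males and 4487 RPM in females, and no library outside the adults had more than the 1395 RPM of the 5-day pupae. DM412 was at 1679 RPM in males and 2728 RPM in females.

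**Figure D5:**
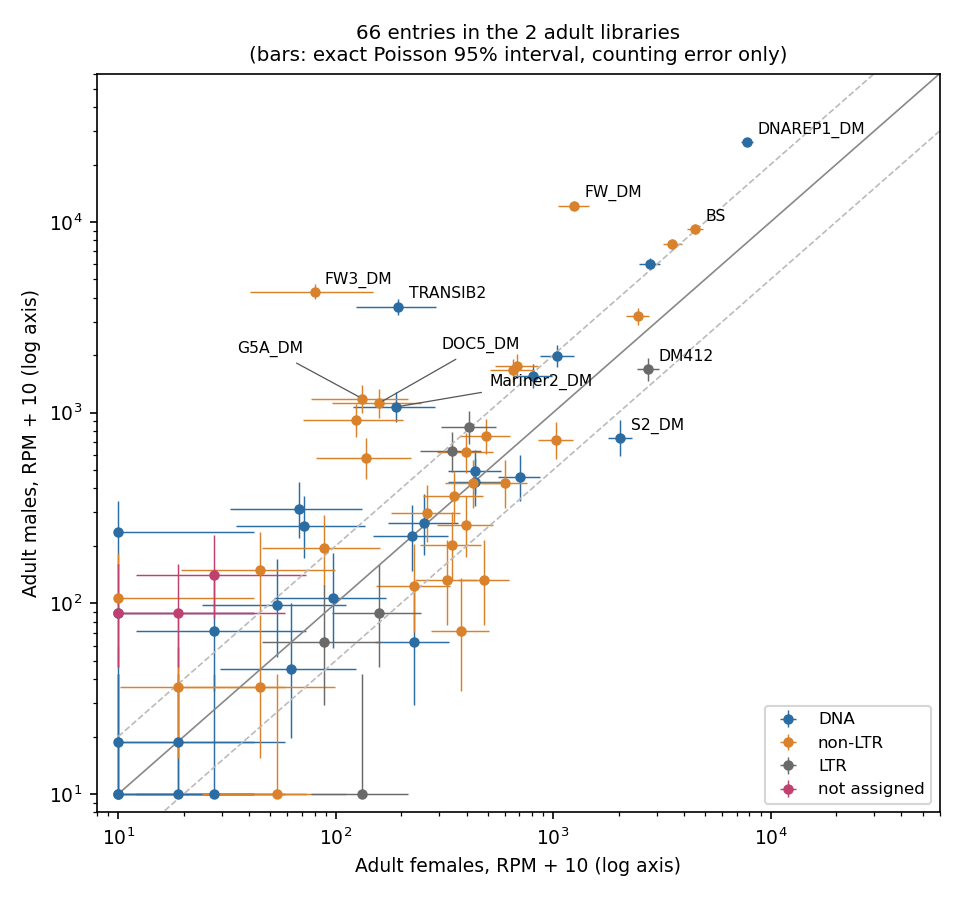
Each point is 1 of the 66 entries, with RPM + 10 in the female library on the x axis and in the male library on the y axis, both log axes, and bars for the 95% Poisson interval of counting. The solid line marks equal levels and the dashed lines 2-fold differences: FW3_DM at 4295 against 70.0 RPM lies farthest above, and S2_DM lies below.

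Put per 1000000 genic reads, the male library had 1248 reads of the 66 entries and the female library 411, and S2_DM stayed higher in females at 20.6 against 9.44. Markers of the gonads differed between the sexes in the same libraries. The 6 testis markers summed to 1375 RPM of genic reads in males and 432 in females, dj being at 475 and 0 and bol at 802 and 222, whereas twe was at 48.8 in males and 209 in females and aly was at 0 in both. The 3 matched markers of germ line and ovary, one of which (aub) is also on the piRNA list, summed to 6.94 and 922, and the 5 of eggshell and yolk to 66.2 and 29197. Somatic markers differed as well. The muscle markers summed to 1726 RPM of genic reads in males and 677 in females, and the nervous system markers to 797 and 275. The digestive tract markers went the other way, at 335 and 1611, and the cuticle markers were at 1.37 and 0. The part of any of these markers in the transposon differences was not tested. In whole animals more cells of a type and more RNA per cell cannot be told apart. The 13 piRNA pathway genes summed to 214 RPM in males and 659 RPM in females.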

How the data were processed

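Start-site signal from RAMPAGE of 36 whole-animal libraries was analysed. The authors deposited RPM values per transposon row and per gene; the submitters' processing notes name dm3, STAR and Cufflinks, without versions; how reads matching several copies were shared is not stated there. The transposon columns sum to 940338 to 1001732 RPM, so they are shares of transposon reads. Per column 50.0 to 83.1% of values were whole multiples of 1 read (tolerance 0.01 of a read), which gave the transposon reads per library but not whole reads for every row, so no count model was run.

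Values were taken as log2(RPM + 10), a row entered the fit if 4 or more of its libraries reached 20 RPM, and limma 3.58.1 (lmFit, eBayes with trend, R 4.3.3) was fitted to all rows with Benjamini-Hochberg adjustment over them. The 24 embryo libraries shared 1 fit with 18 residual degrees of freedom, and larvae and pupae had 8. Fold changes on this scale understate those of low rows. Courses used a natural spline with 5 degrees of freedom. The script was tested on simulated data. Adult libraries were compared as values, with exact Poisson intervals at 95%. Figures were drawn with matplotlib 3.10.9.

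Entries named are the 12 with the highest mean, up to 6 called entries with the largest rise and 6 with the largest fall per comparison, and up to 6 with the largest adult ratio per sex; the rest are counted, or named to complete a count of calls, and G2_DM, Jockey2 and PROTOP_B were named after their values were seen. The rule for the entries uses no values, but it and the gene lists were set with earlier results of these data known. Alternatives changed the added constant, the minimum level, the scale, the libraries and the spline.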

Additional observations from a re-analysis of the deposited data

Results flagged for a closer look

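Among 125 group values of the named entries and of the summed share, 12 had a highest or lowest library set off from the other libraries of its group by a gap larger than Dixon's 95% limit. For independent replicates with a normal spread about 1 in 20 would pass that limit. The libraries of a group are different hours or stages of unequal depth, so that rate need not hold for them. In the embryos BS was at 146 RPM at 4 to 5 h (8 reads), with 0 to 12.7 RPM in the other libraries from 4 to 8 h. BS3_DM was at 7238 RPM at 3 to 4 h, with 1542 to 2489 RPM in the others, and TC1-2_DM was lowest in the same library at 327 RPM. LINEJ1_DM was at 2489 RPM at 2 to 3 h, with 612 to 801 RPM in the others. PROTOP was at 12713 RPM at 10 to 11 h, PROTOP_A was lowest at 13 to 14 h with 1312 RPM, and Transib5 was at 549 RPM at 12 to 13 h on 4 reads. CIRCE was lowest at 22 to 23 h with 288 RPM, which is 2 reads.

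The shallowest L3 library gave 2 of the 12 values, CIRCE at 4918 RPM (17 reads) and DNAREP1_DM at 24226 RPM, where the other larvae were at 484 to 1047 and 8826 to 12112 RPM. In the pupae DOC was at 22377 RPM at 3 days, with 10282 to 12487 RPM in the others, and HOBO was at 5424 RPM at 1 day (103 reads), with 0 to 598 RPM in the others.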

How the results depend on the processing

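The 22 embryo changes picked by the naming rule kept their direction in every alternative run: of their 369 recomputed values, 308 stayed past the threshold or on their side of it and 61 lost the call, and 10 of the 22 kept the call throughout. Steps of other entries in the text were recomputed on the other scales and without single libraries only. The count of entries called from 0 to 4 h to 4 to 8 h was 13, 20 as shares among the 66 entries alone (0 higher, 20 lower, where 2.75% of all rows were higher and 26.4% lower) and 5 in the 8 libraries alone, and 6 to 15 with 1 library left out. From 4 to 8 h to 12 to 16 h it was 18, 10 with median-of-ratios scaling and 10 per genic reads, and 13 to 19 with 1 library left out. From 12 to 16 h to 20 to 24 h it was 3, and 1 to 3 with 1 library left out; median-of-ratios scaling gave 1 higher and 3 lower. Pupae against larvae gave 0, and 0 to 2 with 1 library left out. Courses were 25, and 23 to 28 with 1 library left out. The summed share with 1 library left out was 7.17 to 8.69% at 0 to 4 h, 10.3 to 13.5% at 4 to 8 h, 9.93 to 10.7% at 8 to 12 h, 10.4 to 11.0% at 12 to 16 h, 8.98 to 9.63% at 16 to 20 h, 10.1 to 10.4% at 20 to 24 h, 5.18 to 5.88% in larvae and 6.46 to 7.41% in pupae. The cause of these shifts was not tested. Transib5 from 0 to 4 h to 4 to 8 h lost its call in 11 settings, BS and DMRT1A in 9 each.

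No paired analysis was possible because each stage has 1 library and the labels give no replicate numbers. A count model was not run because fewer than all values were whole reads. Per genic reads was not run for pupae against larvae, and no pupal library was shallow enough for the planned fit without it, the lowest having 18990 transposon reads against a median of 90285. Shallow libraries limit rare entries most: at 19 to 20 h 1 read is 179 RPM, so changes of entries below that level were not detectable there.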
